A study of Mus musculus with 6 samples.

Results

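The pyruvate dehydrogenase complex of mitochondria turns pyruvate into acetyl-CoA, and 10 genes of its control and function were followed here: the kinases Pdk1, Pdk2 and Pdk3, the phosphatase Pdp1, the catalytic and structural subunits Pdha1, Pdhb, Dlat, Dld and Pdhx, and pyruvate carboxylase. They were picked by symbol among 21448 genes: 9 symbols matched exactly, and pyruvate carboxylase (Pc) matched through its older symbol Pcx, which is used below. The data are RNA-seq of B cells from primary lymphomas of E mu-Myc transgenic mice, a strain in which Myc is driven by an immunoglobulin heavy chain enhancer. There were 3 libraries labelled wild type and 3 labelled PRDM15 KO, called knockout here. Per the labels' protocols, cells of both groups grew in medium with IL7, received either 4-hydroxytamoxifen (OHT, 50 nM, to delete Prdm15) or ethanol for 24 hours and were collected 3 days later. The titles do not say which libraries received OHT, and the wild type libraries were taken to be the ethanol ones. On that reading OHT exposure coincides with the knockout label. Effects of OHT, or of the Cre that answers to it, then cannot be told apart from loss of Prdm15. The sources used here name neither the Cre line that answers to OHT, nor the mouse behind each library, nor the age of the mice. Libraries 1, 2 and 3 of a group are its replicate numbers.

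The complex is built from E1 (a heterotetramer of the Pdha1 and Pdhb products, which decarboxylates pyruvate), E2 (Dlat, which carries the acetyl group on lipoate), E3 (Dld, which reoxidises the lipoate) and the E3-binding protein Pdhx. Pyruvate dehydrogenase kinases phosphorylate serines of the Pdha1 protein and switch E1 off, and the phosphatases switch it on again. Pdk1 is a well known target of the hypoxia-inducible factor HIF1 and of MYC, and its product directs pyruvate towards lactate. Pcx, which makes oxaloacetate from pyruvate, is the other main entry of pyruvate carbon into the tricarboxylic acid cycle.

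The libraries held 28852951 to 47255421 reads assigned to genes. Values are CPM, read counts scaled by the effective library size, and all log2 changes are knockout minus wild type on log2(value + 1), with limma's test adjusted by Benjamini-Hochberg over 10533 genes with a mean of at least 1. Rose and fell are used below for an adjusted p under 0.05 in the fit without replicate numbers or in the one with them (the paired fit). Libraries of 1 number may share a mouse or a culture, which the labels do not state, and p-values measure only the spread between these libraries. Prdm15 itself lay between 29.2 and 47.3 in wild type and between 39.2 and 40.9 in knockout libraries, and since all its exons are summed this is no check of the labels. All 10 listed B cell markers were detected in each library, with Cd79b at 389 to 519, and their median log2 change was -0.16. No B cell marker passed in limma. In all pairs 3 of the 10 were lower in knockout and 0 higher, beside 29.9% and 16.7% of all tested genes. Those 3, named after their values were seen, were Cd22 (93.2 ± 34.5 and 42.2 ± 19.2, paired limma adjusted p = 0.0713, DESeq2 with the pairs 4.6e-07), Pax5 (log2 change -0.27) and Vpreb1 (-0.41). The 19 myeloid markers summed to 243.5, 297 and 261 in wild type libraries 1 to 3 and to 228, 2514 and 1367 in knockout libraries 1 to 3. In bulk RNA, fewer cells of a type and less RNA per cell cannot be told apart. Lyz2 and Ctss led that list, at 10.7 to 1471 and 90.3 to 344 over the 6 libraries. Ctss alone gave 184 of the sum in wild type replicate 1 and 190 in knockout replicate 1. The median log2 change of the 15 tested myeloid markers was -0.55, 2.74 and 1.91 in pairs 1 to 3. T cell markers other than Lck (14.2 to 78.0) stayed at or under 5.14, which was Cd8a in knockout replicate 2. The erythroid markers, led by Hbb-b1 and Alas2, summed to at most 1.15 and the stromal ones, led by Col1a1 and Col1a2, to at most 2.86.

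Of the 9 members that could be tested, 1 fell, Pdk1, 0 rose and 8 did not pass; Pdk2 was too low to test. The fall of Pdk1 was called in the paired fit, in which 0.741% of all tested genes were called lower and 0.133% higher. Without the replicate number limma called 0 members, with 1 at an unadjusted p under 0.05, against 0.00949% of all genes called lower and 4.06% at that unadjusted level. On recovered reads edgeR called 0 members without the pairs (0 genes in all, 582 at an unadjusted p under 0.05) and 0 with them (0.323% of genes lower). DESeq2 called 1, Pdk1, without the pairs (0.75% of genes lower) and with them (3.99% lower). The median log2 change of the 9 members was 0.00065, beside -0.028 over all tested genes.

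Pdk1 (ENSMUSG00000006494), the kinase that inactivates E1, fell to between 30.2% and 48.5% of its matching wild type library. It was at 362, 394 and 309 in wild type libraries 1 to 3 and at 109.5, 181 and 150.1 in knockout libraries 1 to 3. All 3 knockout libraries lay below all 3 wild type ones, as for 6.29% of all tested genes. The lowest knockout value was that of replicate 1. The means were 355 ± 43.0 and 147 ± 36.0 (SD, n = 3 libraries), a 2.42-fold lower level in knockout. The log2 change was -1.29, with a 95% interval of -1.65 to -0.93 in the paired fit (limma adjusted p = 0.0414) and of -1.78 to -0.81 without the pairs (adjusted p = 0.212). An exact two-sided permutation test of 3 against 3 gave p = 0.1, the smallest it can give.

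The size of the Pdk1 fall was similar in each way of counting, while its call was not. In edgeR with the pairs the log2 change was -1.27 and the adjusted p was 0.0574. DESeq2 gave -1.27 and an adjusted p of 2.9e-18 with the pairs, and -1.26 and 6.0e-08 without them. The paired limma call was lost without pair 2 (log2 change -1.38, adjusted p = 0.235) and without pair 3 (-1.42, 0.159), where limma called 0 genes in all, with 1415 and 1240 at an unadjusted p under 0.05. Without pair 1 it was -1.08, with an adjusted p of 7.3e-05. By pair the log2 change was -1.72, -1.12 and -1.04 in replicates 1, 2 and 3, so the largest fall was in replicate 1. The median log2 change of the tested myeloid markers was -0.55, 2.74 and 1.91 in these pairs. The part of the myeloid transcripts in the Pdk1 values was not tested. Without knockout replicates 2 and 3, which held the most myeloid transcripts, the log2 change of Pdk1 was -1.68, beside a median of -0.11 over all tested genes. That fit did not use the pairs, and in it a lone knockout library is assumed to vary like the wild type ones.

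**Figure D1:**
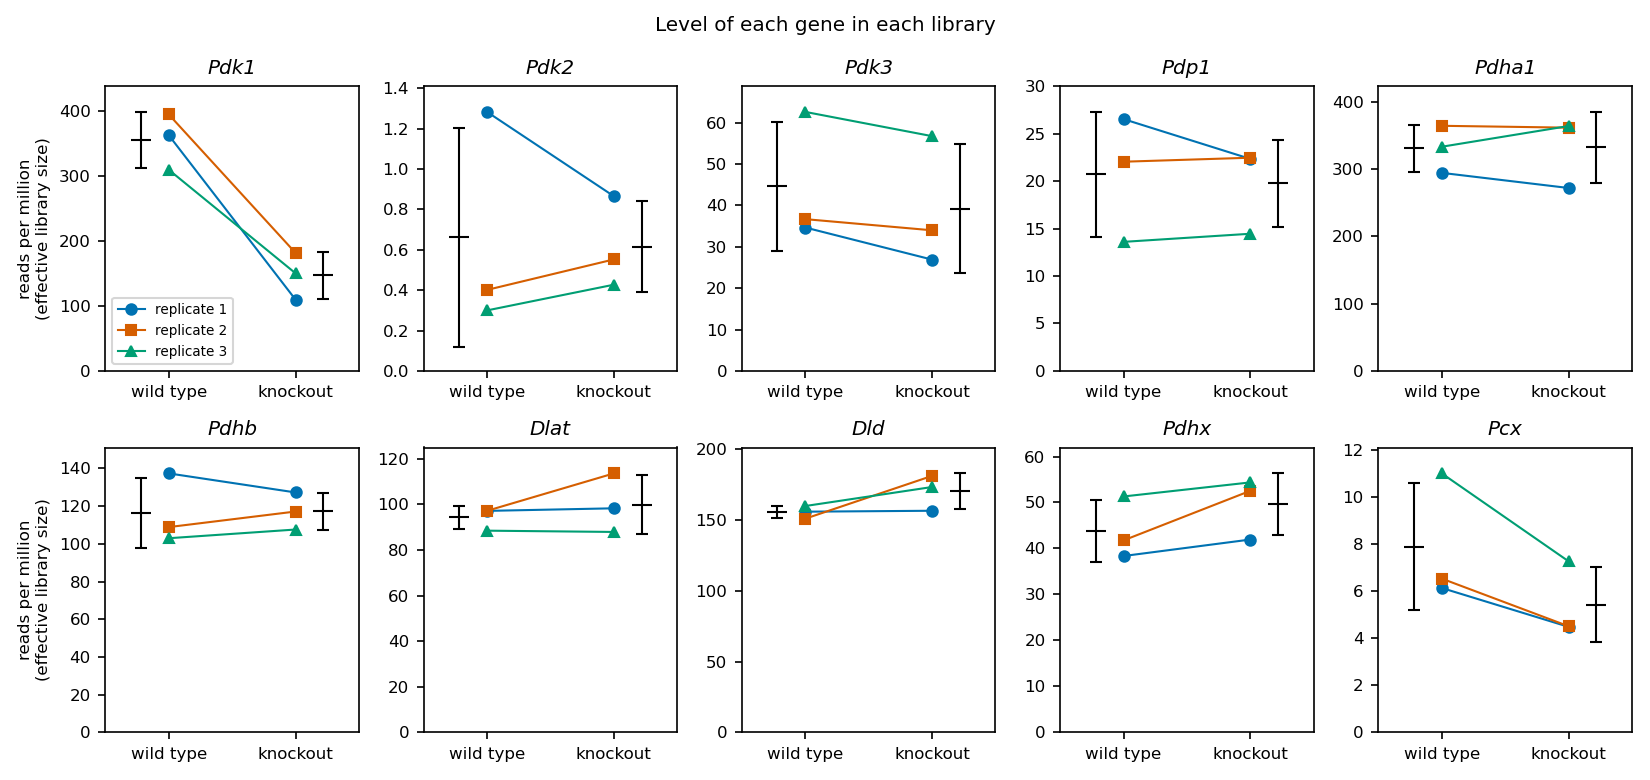
Level of the 10 genes (vertical axes from 0, CPM, read counts scaled by effective library size) by library and group. Lines join libraries with equal numbers, and black bars give the mean and SD (n = 3). Pdk1 lay between 309 and 394 in wild type and between 109.5 and 181 in knockout, and each other gene overlapped between the groups.

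The promoters of the 2 kinases with appreciable reads are shown because 1 of them, Pdk1, was called and the other, Pdk3, was not. Capitals mark ACGTG and GCGTG on either strand (CACGT and CACGC when read on the strand shown), the core letters that HIF dimers recognise. The sequences are RefSeq's, of build GRCm38.p6. The Pdk1 stretch is chr2:71872974-71873243 on the plus strand and runs from 250 bases before its first start site to 20 after it. The Pdk3 stretch is chrX:93832181-93832400 on the minus strand and runs from 250 to 31 bases before the start site.
Pdk1: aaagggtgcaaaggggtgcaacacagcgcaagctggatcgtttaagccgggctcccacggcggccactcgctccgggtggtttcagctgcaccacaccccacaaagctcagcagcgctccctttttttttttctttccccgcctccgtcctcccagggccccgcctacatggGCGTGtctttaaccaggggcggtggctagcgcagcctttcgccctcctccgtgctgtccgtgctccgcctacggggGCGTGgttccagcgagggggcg
Pdk3: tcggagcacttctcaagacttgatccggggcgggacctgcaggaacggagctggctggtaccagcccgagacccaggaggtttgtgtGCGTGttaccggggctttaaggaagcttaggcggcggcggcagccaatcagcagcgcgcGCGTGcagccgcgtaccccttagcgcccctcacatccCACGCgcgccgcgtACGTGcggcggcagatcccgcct

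The Pdk1 stretch held 2 matches, both GCGTG, beginning 78 and 2 bases before the start site. The Pdk3 stretch held 4, beginning 163, 104, 67 and 53 bases before its start site, of which 1 was ACGTG. Any link between these matches and the changes of the 2 kinases was not tested. Over windows from 250 bases before to 50 after a start site, 43.8% of 32851 promoters held ACGTG or GCGTG (19.6% the first and 32.4% the second). Windows existed for 9 members, 3 of them with 2 start sites. A match was found in 7 of these 12 windows (58.3%), belonging to 7 genes, and in none of Dlat and Dld. CACGTG, the E-box letters bound by MYC and MAX, which contain ACGTG on both strands, was found in 7.15% of all promoters. Among the members it was in 1 window each of Pdk2 and Pcx and in neither window of Pdk1. These are matches of letters only.

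Pdk3 (ENSMUSG00000035232), the other kinase with appreciable reads, did not pass the test and differed more between replicate numbers than between groups. It was at 34.7, 36.7 and 62.6 in wild type libraries 1 to 3 and at 26.9, 34.0 and 56.8 in knockout. Replicate 3 was highest in both groups and the groups overlapped. Each knockout library was below its partner, as for 29.9% of all tested genes. The log2 change was -0.20, with a 95% interval of -0.39 to -0.012 in the paired fit (limma adjusted p = 0.222) and of -1.03 to 0.62 without the pairs. Its log2 range over the libraries of a group was 0.83 in wild type and 1.05 in knockout.

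The remaining kinases were almost silent. Pdk2 (ENSMUSG00000038967), widely expressed in other tissues, was at 1.28, 0.401 and 0.30 in wild type and at 0.865, 0.552 and 0.427 in knockout libraries 1 to 3, from 14 to 48 reads a library. Its groups overlapped, and the mean of 0.638 was under the limit for testing. Pdk4, the kinase induced by fasting and named outside the rule for related genes after its values were seen, had 3, 2 and 0 reads in wild type and 3, 2 and 2 in knockout libraries. The 0 reads of wild type replicate 3 allow a level of up to 0.0642 (3 reads, counting error only).

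Levels of different kinases were compared per kilobase of exon, with lengths of GENCODE M21. The kinases together stood at 60.6, 65.2 and 64.3 CPM per kb in wild type and at 24.9, 36.8 and 41.6 in knockout libraries 1 to 3. Set against Pdha1, whose product they phosphorylate, the kinase level was 0.719 ± 0.0501 of the Pdha1 level in wild type and 0.383 ± 0.0425 in knockout (mean ± SD, n = 3), and the groups did not overlap. Both are sums that contain Pdk1 and are given without a test. Pdk1 made up 76.9%, 77.8% and 61.8% of the kinase level in wild type and 56.6%, 63.4% and 46.4% in knockout, ranges that overlap when the pairs are ignored. Pdk3 made up 22.4%, 22.0% and 38.0% and then 42.2%, 36.1% and 53.3%. In knockout replicate 3 Pdk3 was at 22.2 per kb and Pdk1 at 19.3, an order that turned with the longest coding transcript as the length (26.8 and 28.9).

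**Figure D2:**
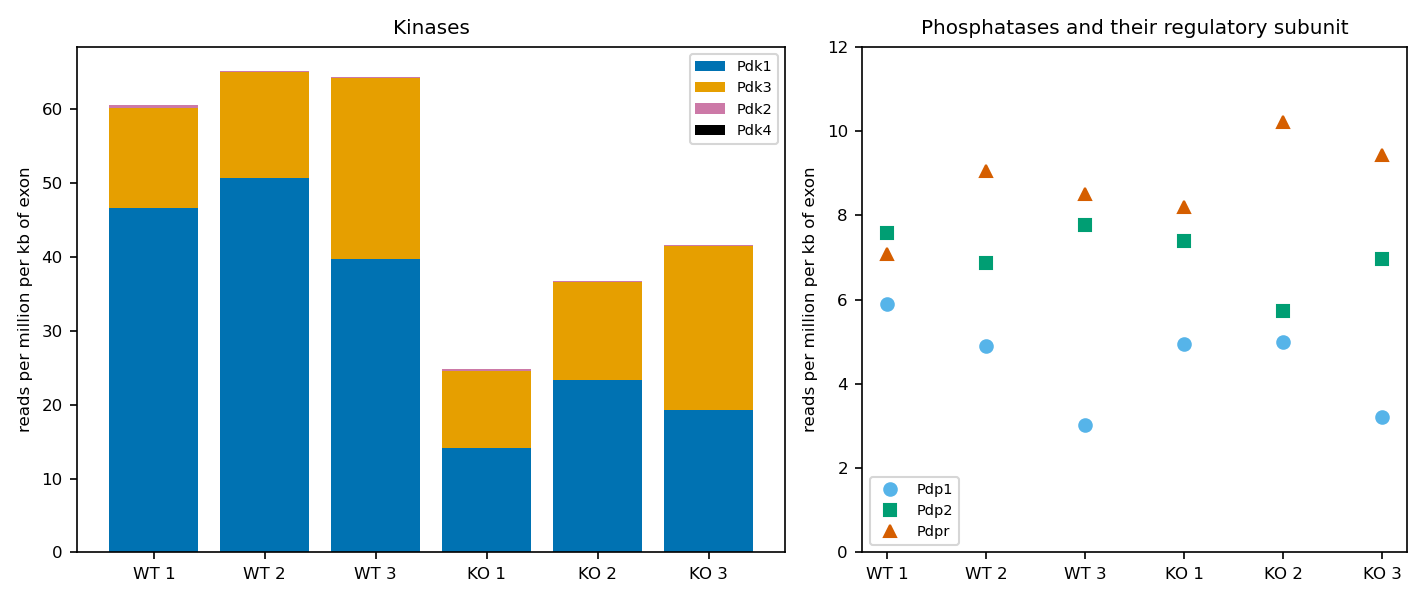
CPM per kb of exon (vertical axes from 0) in each library (WT, wild type; KO, labelled knockout) for the 4 kinases as stacked bars (left) and for the phosphatases Pdp1 and Pdp2 and the subunit Pdpr as points (right). The kinase bars reach 60.6 to 65.2 in wild type and 24.9 to 41.6 in knockout, and the Pdk1 part is 39.8 or more in wild type and 23.3 or less in knockout.

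The phosphatases that oppose the kinases did not pass. Pdp1 (ENSMUSG00000049225), the catalytic subunit of the calcium-sensitive phosphatase, was at 26.6, 22.1 and 13.6 in wild type and at 22.4, 22.5 and 14.5 in knockout libraries 1 to 3. Replicate 3 was lowest in both groups, where Pdk3 was highest. The log2 change was -0.043, with a paired 95% interval of -0.28 to 0.19 (limma adjusted p = 0.816), and it took the other sign when libraries were scaled to equal totals (0.0094). Pdp2, the second catalytic subunit, was at 42.2 ± 2.66 and 38.1 ± 4.93, and the regulatory subunit Pdpr at 41.3 ± 5.10 and 46.7 ± 5.12 (n = 3), with paired limma adjusted p of 0.293 and 0.190. The kinases together exceeded both phosphatases together by 4.50 to 5.96 times per kb in wild type libraries and by 2.01 to 4.09 times in knockout libraries. This ratio contains Pdk1 and is given without a test, and both phosphatases together were at 12.0 ± 1.36 and 11.1 ± 1.14 per kb. With the longest coding transcript as the length the ratio was 6.25 to 8.12 in wild type and 2.69 to 5.38 in knockout.

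The E1 subunits were level between the groups. Pdha1 (ENSMUSG00000031299) was at 294, 364 and 333 in wild type and at 272, 362 and 364 in knockout libraries 1 to 3, with replicate 1 lowest in both. The means were 331 ± 35.1 and 333 ± 52.5, and the log2 change was 0.00065, with a paired 95% interval of -0.16 to 0.16 (limma adjusted p = 0.997). Exons of Map3k15 overlap those of Pdha1 on the opposite strand, and at 0.374 to 3.08 that gene was far lower. Pdhb (ENSMUSG00000021748) was at 137, 108.8 and 102.9 in wild type and at 127, 117 and 107.6 in knockout, with replicate 1 highest in both. Its log2 change was 0.019, with a paired interval of -0.14 to 0.18 (limma adjusted p = 0.882).

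The subunits downstream of E1 did not pass either, and their mean changes were above 0. Dlat (ENSMUSG00000000168) was at 97.1, 97.2 and 88.5 in wild type and at 98.3, 113.6 and 87.9 in knockout libraries 1 to 3. Its log2 change was 0.077, with a paired 95% interval of -0.091 to 0.24 (limma adjusted p = 0.535). In a fit without the pairs it was -0.019 when knockout replicate 2, which held the highest value, was left out. Dld (ENSMUSG00000020664), the E3 that the 2-oxoglutarate and branched-chain complexes also use, was at 156, 151 and 160 in wild type and at 157, 181 and 173 in knockout. Each Dld value in knockout was above its partner, as for 16.7% of all tested genes, and the log2 change was 0.13, with a paired interval of -0.038 to 0.29 (limma adjusted p = 0.325).

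Pdhx (ENSMUSG00000010914), which anchors E3 to the core, was at 38.4, 41.8 and 51.3 in wild type and at 41.9, 52.5 and 54.4 in knockout libraries 1 to 3. It was also above its partner in each pair, and the log2 change was 0.18, with a paired 95% interval of -0.0038 to 0.36 (limma adjusted p = 0.243). The groups overlapped for each of these subunits. In the pair of replicate 2, where the summed myeloid markers were highest, Dlat, Dld and Pdhx had their largest log2 changes (0.22, 0.26 and 0.32). In pair 1 they were 0.017, 0.0060 and 0.13, and in pair 3 -0.0090, 0.12 and 0.082. The part of the myeloid transcripts in these values was not tested. Without knockout replicates 2 and 3 the log2 change of Pdhx was -0.051. That fit did not use the pairs, and all tested genes had a median of -0.11 in it.

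Pyruvate carboxylase, Pcx (ENSMUSG00000024892), was lower in knockout in each pair, as for 29.9% of all tested genes, without passing. It was at 6.14, 6.54 and 11.0 in wild type and at 4.49, 4.52 and 7.28 in knockout libraries 1 to 3, from 135 to 515 reads a library. Replicate 3 was highest in both groups, and knockout replicate 3 lay above wild type replicates 1 and 2, so that the groups overlapped. The log2 change was -0.46, with a 95% interval of -0.72 to -0.19 in the paired fit (limma adjusted p = 0.134) and of -1.16 to 0.24 without the pairs. Within pairs Pcx stood at 73.1%, 69.03% and 66.1% of wild type. In fits without the pairs its log2 change was -0.65 without knockout replicate 3 and -0.22 without wild type replicate 3, neither past the test.

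**Figure D3:**
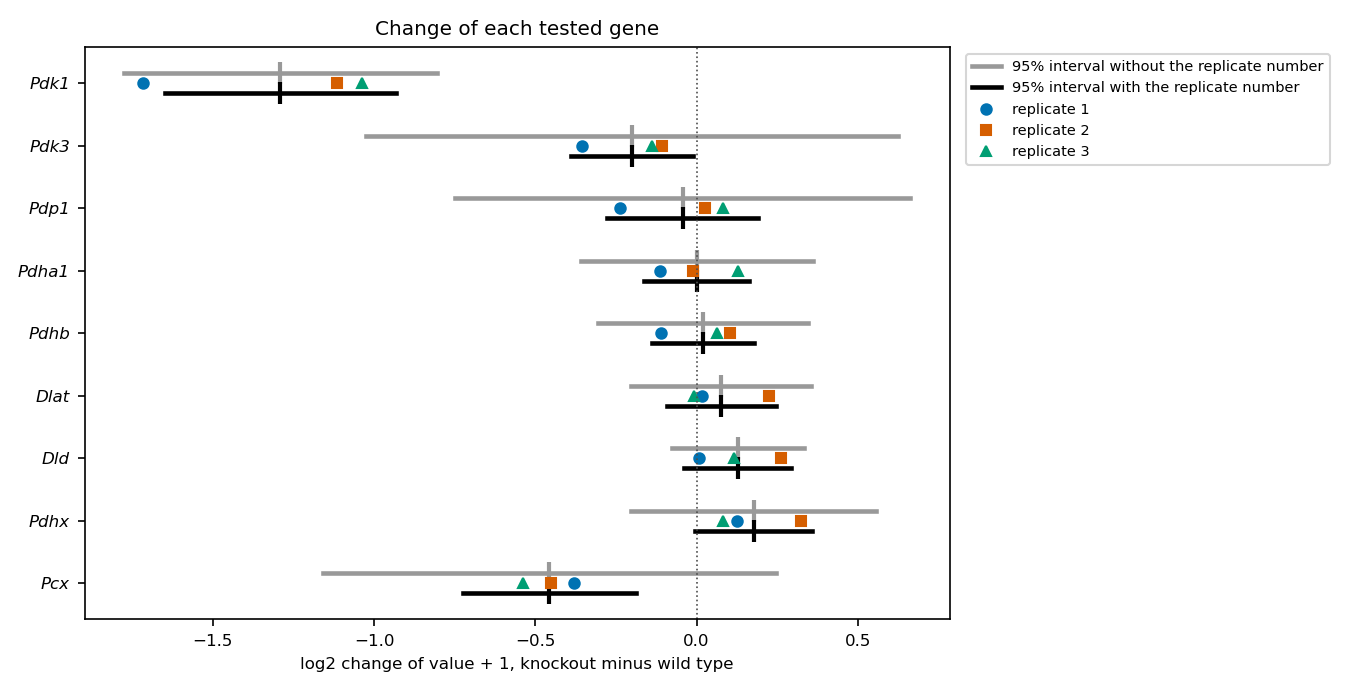
Log2 change of value + 1, knockout minus wild type (horizontal axis), for the 9 tested genes, with 1 symbol per replicate number and 95% limma intervals without (grey) and with (black) the replicate number. Pdk1 lay at -1.72, -1.12 and -1.04, and the black intervals of Pdk1, Pdk3 and Pcx lie below 0 although only Pdk1 passed after adjustment over all genes.

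The log2 difference between Pdk1 and each of the 8 other tested members is given as a description, with no test, since Pdk1 was taken for its call. It changed by -1.29 for Pdk1 minus Pdha1 (from 0.102 in wild type to -1.19 in knockout), by -1.09 for Pdk1 minus Pdk3 (from 3.01 to 1.92) and by -0.83 for Pdk1 minus Pcx (from 5.36 to 4.52). Over the 8 members the change lay between -1.47 for Pdhx and -0.83 for Pcx.

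Per kilobase of exon the order of the members was led by Pdha1 in both groups, at 88.6 ± 9.39 in wild type and 89.1 ± 14.1 in knockout. In wild type Pdk1 followed at 45.7 ± 5.52, not separated from Dld at 42.2 ± 1.216, and then Pdhb (30.1 ± 4.76), Dlat (19.3 ± 1.027), Pdk3 (17.4 ± 6.09), Pdhx (11.1 ± 1.71), Pdp1 (4.602 ± 1.46), Pcx (1.66 ± 0.570) and Pdk2 (0.209 ± 0.171). Besides Pdk1 and Dld, the ranges of Dlat and Pdk3 overlapped, and the other neighbours did not. In knockout Pdk1 was at rank 5 with 18.9 ± 4.63, with a range that overlapped those of Dlat (20.4 ± 2.64) and Pdk3 (15.3 ± 6.09), and Pdk3 also overlapped Pdhx (12.6 ± 1.71). With the longest coding transcript as the length Pdhb came before Pdk1 in wild type (76.9 and 68.6, with overlapping ranges). In knockout Pdk1 was then at rank 4, with 28.4 against 24.8 for Dlat.

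The replicate numbers ordered the libraries alike in both groups for 6 of the 10 genes: Pdk2, Pdk3, Pdhb, Dlat, Pdhx and Pcx. The share of all tested genes with such an order was not counted. Replicate 1 was lowest for Pdk3, Pdhx and Pcx in both groups, and highest for Pdhb and Pdk2. Pdk1, Pdp1, Pdha1 and Dld were the exceptions. For Pdk1 replicate 3 was lowest in wild type and replicate 1 lowest in knockout. Dld varied least in wild type, with a log2 range of 0.082.

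The neighbours of the complex were followed in 5 lists with 54 genes, of which 42 could be tested: 2 fell, 0 rose and 40 did not pass. The median log2 change of the 42 was -0.038. Both that fell, Pkm and Ldha, take part in making lactate, and the paired limma fit called them, as it called 0.741% of all tested genes lower. In limma both calls were lost without the pairs (adjusted p = 0.165 for Pkm and 0.168 for Ldha). No related gene was called by limma with the pairs when pair 2 or pair 3 was left out. In edgeR both were called with the pairs (adjusted p = 0.0455 and 0.0445) and neither without them (0.261 for each). DESeq2 without the pairs called both (adjusted p = 5.4e-10 and 2.7e-08). Pkm, pyruvate kinase, was at 4126, 3570 and 2649 in wild type and at 1094, 1405 and 1110.4 in knockout libraries 1 to 3 (log2 change -1.50, paired limma adjusted p = 0.0330). Ldha, lactate dehydrogenase A, was at 3764, 2921 and 2414 and at 1145, 1274 and 1054.6 (log2 change -1.37, paired limma adjusted p = 0.0313). Like Pdk1, they had no overlap between groups, as for 6.29% of all tested genes in that direction, and their largest fall in pair 1.

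Other enzymes of that list did not pass in limma. Citrate synthase (Cs), alanine aminotransferase 2 (Gpt2) and ATP citrate lyase (Acly) are named here outside the rule because DESeq2 with the pairs called them, as it called 3.99% of all genes lower and 3.02% higher. Cs, which takes up the acetyl-CoA that the complex makes, was at 251 ± 4.45 in wild type and 299.8 ± 17.3 in knockout, without overlap, as for 3.21% of all genes in that direction (log2 change 0.25, paired limma adjusted p = 0.116, DESeq2 0.00027). Acly went from 777 ± 66.9 to 608 ± 28.3 without overlap, as for 6.29% of all genes in that direction (log2 change -0.35, paired limma 0.0672, DESeq2 8.4e-08). Gpt2, which interconverts pyruvate and alanine, went from 16.6 ± 3.85 to 10.3 ± 3.10 (log2 change -0.65, paired limma 0.0569, DESeq2 0.0022). In this list 11 genes were tested, 2 fell and 9 did not pass, with a median of -0.22.

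Genes that feed pyruvate and cofactors to the complex did not pass. Of 7 tested carriers and thiamine genes 0 were called, with a median log2 change of -0.079. The transporter Slc16a1 (MCT1), which carries lactate and pyruvate, was at 628 ± 6.58 and 595 ± 42.3, and the citrate carrier Slc25a1 at 75.7 ± 5.52 and 65.7 ± 4.44. The mitochondrial pyruvate carrier subunits, named outside the rule after their values were seen, were at 25.8 ± 5.87 and 25.1 ± 2.60 (Mpc1) and at 30.8 ± 0.611 and 33.0 ± 1.83 (Mpc2).

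Lipoate is the cofactor bound to Dlat, and of the 10 genes of its assembly 0 were called, with a median log2 change of -0.016. Lias, lipoyl synthase, was at 47.5 ± 6.12 and 54.4 ± 2.58 without overlap between the groups, as for 3.21% of all genes in that direction (log2 change 0.20, paired limma adjusted p = 0.266). Isca1, an iron-sulfur assembly factor named after its values were seen, lay the other way without overlap, at 30.8 ± 1.53 and 27.15 ± 1.027, as for 6.29% of all genes (paired limma adjusted p = 0.235). Glrx5, an iron-sulfur cluster factor, was at 44.6 ± 1.77 and 45.0 ± 4.19. The list of sister complexes, several of which use the same E3, and their regulators had 9 tested genes and 0 calls, with a median of 0.094. Ogdh and Dlst, the E1 and E2 of the 2-oxoglutarate complex, were at 115.5 ± 13.8 and 128.6 ± 10.5 and at 182 ± 13.1 and 195 ± 8.58. Of the other regulators, which include the sirtuins Sirt3, Sirt4 and Sirt5, 5 were tested and 0 called (median -0.15).

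**Figure D4:**
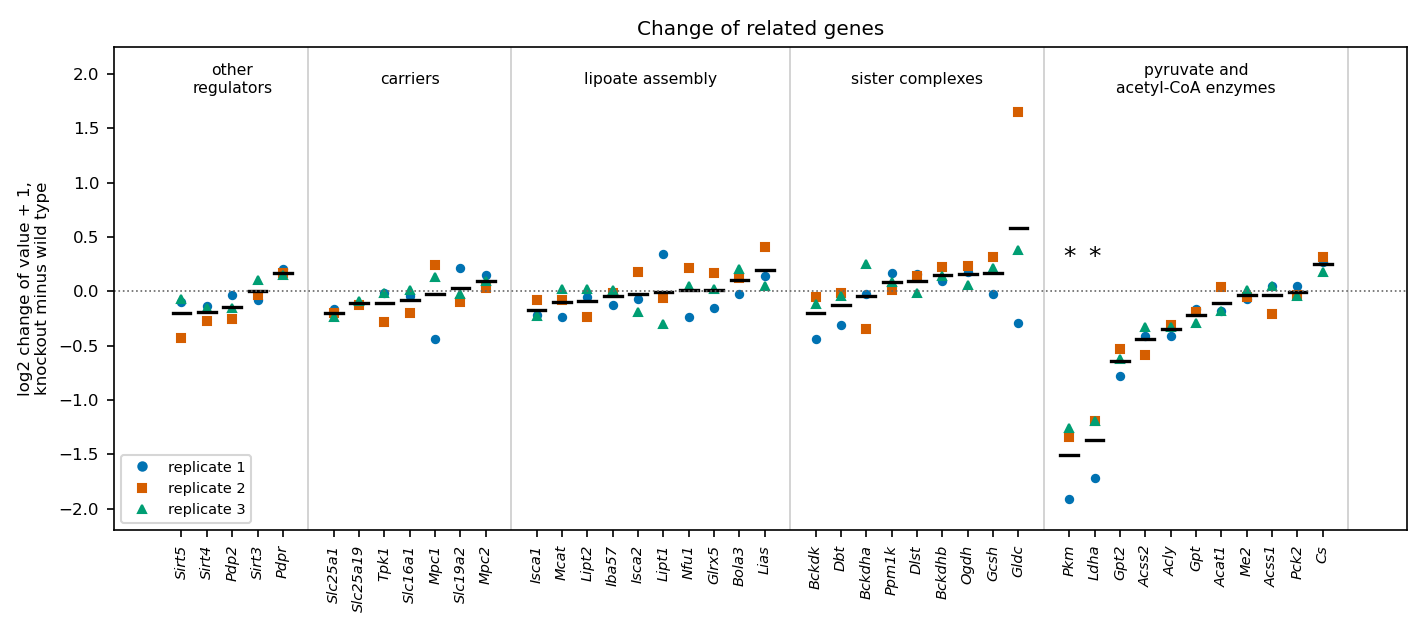
Log2 change of value + 1, knockout minus wild type (vertical axis), of the 42 tested genes of the 5 related lists, with 1 symbol per replicate number, a bar for the mean and an asterisk where the paired limma adjusted p was under 0.05. Only Pkm and Ldha bear an asterisk, with means of -1.50 and -1.37.

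The 5 genes whose pattern over the 6 libraries was most like that of Pdk1, by Pearson's r of log2(value + 1), were R3hcc1l (0.99), Stk25 (0.99), Ppp6r2 (0.99), Pgm2 (0.98) and Nek9 (0.98). The 6 points of each comparison share the same libraries and the same group split. Pgm2, a phosphoglucomutase, fell from 98.0, 96.1 and 61.6 in wild type to 23.8, 36.1 and 29.7 in knockout libraries 1 to 3 (log2 change -1.47, paired limma adjusted p = 0.0482). That call was lost in limma without the pairs (adjusted p = 0.232) and in edgeR with them (0.0671). The other 4 had smaller changes that did not pass, from -0.13 for R3hcc1l to -0.44 for Ppp6r2, a regulatory subunit of protein phosphatase 6.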

How the data were processed

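The authors deposited a signal on the scale of CPM (the table is named FPKM): the read count of a gene over its library's effective size. All genes of a library shared 1 step between values, and with a tolerance of 0.01 reads 100% of values came out whole. Per the submitters' processing notes, CASAVA, STAR 2.4.2a, HTSeq, edgeR and mm9 were used, with no role given; the sources used here give no annotation or strand setting. Limma 3.58.1 (trended prior variance) was run on log2(value + 1) in R 4.3.3 for genes with a mean of at least 1, and edgeR 4.0.16 and DESeq2 1.42.0 on the recovered read counts; limma, and the count tests with pairs, were tested on simulated data. Same-numbered libraries deviated together (correlations over genes of 0.73, 0.73 and 0.84), so the numbers were taken to pair them. Genes were named by rule: the members, called genes and the 2 highest of each related list, the 2 highest of each marker list, Prdm15, and the 5 genes most like a called member (predicted names left out). One marker under this rule is not reported here. Members and lists were chosen with earlier results of these data known. Lengths come from GENCODE M21 (GRCm38), another build than mm9, and 2 marker symbols matched no row. The other settings tried were pseudocounts, filters, prior variance, scalings, count tests and left-out libraries.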

Additional observations from a re-analysis of the deposited data

How the results depend on the processing

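The call of Pdk1 changed with the replicate block, the tool and the pairs kept, and its direction under no alternative run. The settings here are 25 alternatives to limma without the replicate block. They include the paired fit that gave the calls of Pdk1, Pkm, Ldha and Pgm2 above. Over them the log2 change of Pdk1 ran from -1.68 to -1.08, and 7 called it. Limma without the block called 0 members. Pdk1 alone was called with the block, with the block without pair 1, and in DESeq2 without and with the block. The 3 added paired settings also called Pdk1 alone. Those 3, chosen after seeing the data, were the block with equal totals, quantile normalization or a pseudocount of 0.1. Related genes called were 0 in limma without the block and 2 with the block in limma and in edgeR. In DESeq2 they were 2 and 5 without and with the block. They were 5 with the block without pair 1, and 2, 3 and 2 in the added settings. Over all genes limma without the block called 1. The count was 0 with pseudocounts of 0.1 or 5, without a filter, with quantile normalization and in edgeR. It was also 0 without any single library, and 2 with a mean of at least 5. It was 92 with the block, 39 and 738 in edgeR and DESeq2 with the block, 110 in DESeq2, 840 with the block without pair 1, 0 without pair 2 or 3, and 81, 129 and 130 in the added settings. In edgeR 582 genes had an unadjusted p under 0.05, and in limma 428.

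Log2 changes near 0 took the other sign in some settings; the cause was not tested. The fits with 1 library left out did not use the replicate block, so its replicate number stayed in 1 group only. In these fits the changes ran from -0.50 to 0.065 for Pdk3, -0.31 to 0.16 for Pdp1, -0.080 to 0.14 for Pdha1, -0.063 to 0.14 for Pdhb and -0.019 to 0.16 for Dlat. With the block Pdk3 was at -0.12, -0.25 and -0.23 without pair 1, 2 and 3. Pdp1 was at 0.0094 with equal totals, with and without the block, and at 0.054 with the block without pair 1. Pdhb was at -0.023 and -0.0024 with the block without pair 2 and 3, and Pdha1 at -0.063 without pair 3. The fit without knockout replicates 2 and 3 set knockout replicate 1 against all wild type libraries, without the pairs. All genes had a median of -0.11 in it, Pdp1 was at 0.15, Pdha1 at -0.28 and Pdhx at -0.051. Within pair 1 Pdp1 was at -0.24, Pdha1 at -0.11 and Pdhx at 0.13. Dld and Pcx kept their sign in all 25 settings. Low reads limit Pdk2 and Pdk4.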
